A study of Mus musculus with 6 samples.

Results

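Genes that mark adipose tissue and skeletal muscle were examined in whole B16-F10 tumors. Entries of the deposited FPKM table were taken when their symbol equalled that of 1 of 10 listed genes, and all 10 were found among 21358 entries. They were the adipose genes Adipoq, Plin1, Fabp4, Lep and Cfd and the skeletal muscle genes Acta1, Ckm, Mylpf, Myh4 and Tnnt3. RNA came from tumors of the syngeneic murine melanoma line B16-F10, grown subcutaneously in C57/BL6 mice and treated once they measured at least 150 mm3. All mice were irradiated and then received, by adoptive cell transfer (ACT), T cells of the pmel-1 line of mice, which carry a transgenic T cell receptor for the melanocyte antigen gp100. In 3 mice ACT was combined with IL-2 and in 3 mice with NKTR-214, an IL-2 to which releasable polyethylene glycol chains are attached. Every tumor was taken at day 12 after treatment and gave 1 library, with no untreated tumor and no sample of the surrounding skin or body wall among the libraries analysed here, so all values are those of treated tumors.

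White adipocytes store triglyceride in a lipid droplet coated by perilipins and release the hormones adiponectin and leptin. Skeletal muscle fibers contract through filaments of actin and myosin, and fast fibers carry their own forms of myosin and troponin. Both tissues lie next to a subcutaneous tumor, the fat of the hypodermis on all sides and the thin skeletal muscle sheet of mouse skin and the body wall beneath it. B16-F10 cells are of the melanocyte lineage, a lineage in which these hormones and sarcomere proteins are not known as typical products.

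FPKM divides the reads of a gene by its exon length and by the mapped reads of the library, so levels can be compared between genes. The lowest values of the table step in whole reads, and from these steps the libraries were estimated to hold 20800000 to 24500000 mapped reads. The library with the lowest depth, that of ACT + IL-2 replicate 3, held 84.7% of the reads of the deepest. FPKM summed over all entries ran from 176420 in ACT + IL-2 replicate 2 to 246514 in ACT + NKTR-214 replicate 2. The 8 melanocyte genes listed here as tumor markers summed to 5604 to 7182 FPKM in ACT + IL-2 and to 2756 to 3896 FPKM in ACT + NKTR-214, against 25.5 to 216 FPKM for the 5 adipose genes and 30.4 to 92.9 FPKM for the 5 muscle genes.

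The question was how the RNA of these tissues differed between the treatment groups and between tumors of the same group. The 5 adipose genes had higher means and the 5 muscle genes had lower means in ACT + NKTR-214, but in all 10 genes the tumors of the groups overlapped. With limma on log2(FPKM + 1) over 14172 genes and a threshold of 0.05 on the Benjamini-Hochberg adjusted p, 1 of the 10 genes (Fabp4) was higher and 4 (Acta1, Ckm, Myh4 and Tnnt3) were lower in ACT + NKTR-214. As background, 20.7% of all genes tested were higher, 8.28% were lower, and 42.4% had groups that did not overlap. The lower share depended on the scaling and was 26.2% with a common 75th percentile, 32.1% with quantile normalization and 31.3% with a common FPKM sum, under each of which 5 of the 10 genes were lower. The median log2 fold change was 0.87 for the adipose genes and -0.77 for the muscle genes, against 0.05 over all genes tested. In bulk RNA, fewer cells of a type and less RNA per cell cannot be told apart.

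**Figure D1:**
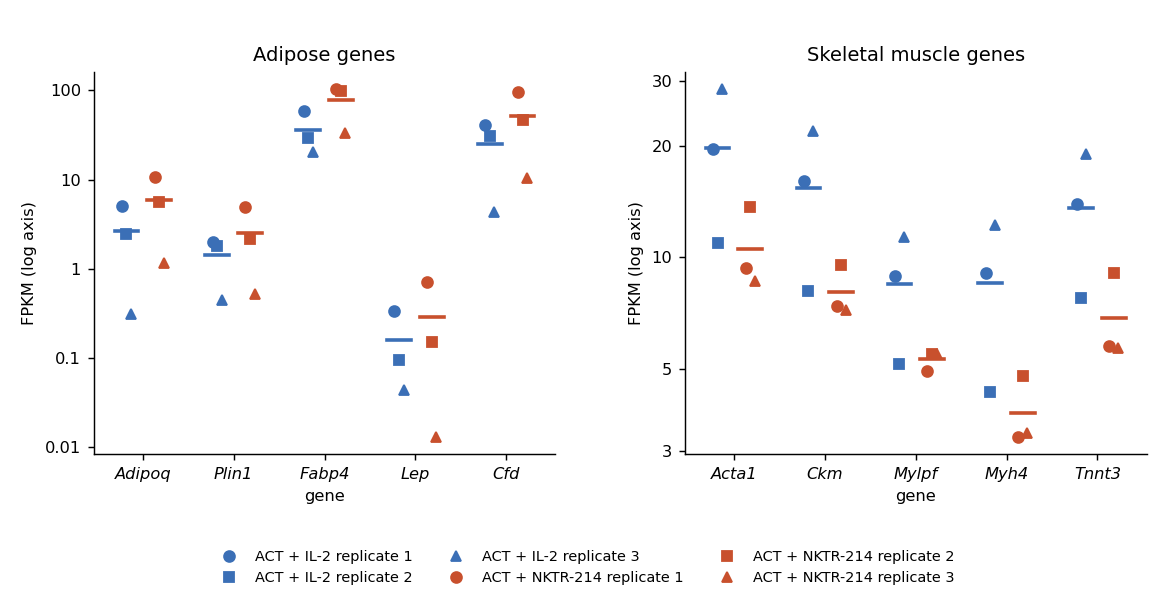
FPKM of each adipose gene (left) and skeletal muscle gene (right) on log axes, with 1 symbol per tumor (circle, square and triangle for replicates 1, 2 and 3; blue for ACT + IL-2, red for ACT + NKTR-214) and a bar at each group mean of 3 tumors. The triangle is lowest for every adipose gene in both groups, the blue triangle is highest for every muscle gene, and the colors overlap in all 10 genes.

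Adipoq (chromosome 16, 23146536 to 23158028 on GRCm38) encodes adiponectin, a hormone made by adipocytes. It had 5.11, 2.48 and 0.311 FPKM in replicates 1, 2 and 3 of ACT + IL-2 and, in the same order, 10.8, 5.63 and 1.16 FPKM in ACT + NKTR-214. Replicate 1 was the highest and replicate 3 the lowest tumor of both groups, and ACT + NKTR-214 replicate 3 lay below ACT + IL-2 replicates 1 and 2. The means were 2.63 ± 2.40 and 5.87 ± 4.84 FPKM (SD, n = 3 each), with a log2 fold change of 0.87 (standard error, SE, 0.51, limma adjusted p = 0.229). Thus the difference between the groups did not exceed the spread between tumors.

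The leptin gene Lep (chromosome 6, 29060220 to 29073877) encodes the hormone by which fat signals energy stores, and it was the lowest of the 10 genes. Its values were 0.335, 0.0941 and 0.0441 FPKM in ACT + IL-2 and 0.710, 0.152 and 0.013 FPKM in ACT + NKTR-214, in the order of the replicate numbers. The steps of the values place these at 26, 7 and 3 reads and at 57, 12 and 1 reads. A count of 1 read has an exact 95% Poisson interval of 0.0253 to 5.57 reads and a count of 57 reads an interval of 43.2 to 73.9 reads, which cover counting error only. At these depths the order of the tumors with 7 and 3 reads was not resolved, while the tumors numbered 1 stood above the others of their group. The log2 fold change between the groups was 0.13 (SE 0.15, limma adjusted p = 0.571).

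Cfd (chromosome 10, 79890853 to 79892655) encodes complement factor D, also called adipsin, a serine protease secreted by fat. It reached 40.5, 30.7 and 4.35 FPKM in ACT + IL-2 and 96.6, 46.6 and 10.3 FPKM in ACT + NKTR-214. The tumor numbered 3 was again far below the other tumors of its group. The means of 25.2 ± 18.7 and 51.2 ± 43.4 FPKM (SD, n = 3 each) gave a log2 fold change of 0.97 (SE 0.68, limma adjusted p = 0.317), and the standard error was the largest among the 10 genes. With 1 tumor left out, the log2 fold change ran from 0.046 to 1.83 for Cfd and from 0.26 to 1.55 for Adipoq, lowest for both without ACT + IL-2 replicate 3 and highest for both without ACT + NKTR-214 replicate 3.

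Plin1 (chromosome 7, 79720218 to 79732903, minus strand) encodes perilipin 1, the coat protein of the adipocyte lipid droplet. It had 2.01, 1.82 and 0.448 FPKM in ACT + IL-2 and 4.88, 2.14 and 0.527 FPKM in ACT + NKTR-214. Only ACT + NKTR-214 replicate 1 stood well apart from the ACT + IL-2 tumors. The log2 fold change was 0.40 (SE 0.36, limma adjusted p = 0.443), and without ACT + NKTR-214 replicate 1 its sign turned, to -0.077 for Plin1 and likewise to -0.092 for Lep.

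Fabp4 (chromosome 3, 10204088 to 10208576, minus strand) encodes the fatty acid binding protein of adipocytes, which macrophages and capillary endothelium also make. It had the highest mean of the 10 genes over the 6 tumors, though not the highest value in ACT + IL-2 replicates 2 and 3, with 59.5, 29.2 and 20.4 FPKM in ACT + IL-2 and 103, 99.1 and 33.2 FPKM in ACT + NKTR-214. Its tumors kept the order of the other adipose genes, but over a narrower range. The means were 36.4 ± 20.5 and 78.5 ± 39.3 FPKM (SD, n = 3 each), and the log2 fold change of 1.06 (SE 0.38, limma adjusted p = 0.0450) passed the threshold by a small margin. The call was lost when ACT + IL-2 replicate 2, ACT + IL-2 replicate 3 or ACT + NKTR-214 replicate 1 was left out (limma adjusted p = 0.257, 0.136 and 0.0525), and under every other scaling of the libraries.

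Markers of the other cell types that make Fabp4 were read beside it. All 9 macrophage genes were higher in ACT + NKTR-214, with sums of 394 to 1151 FPKM in ACT + IL-2 and 1780 to 3188 FPKM in ACT + NKTR-214. Of 7 endothelial genes, 1 was higher (Pecam1), the groups overlapped in all 7, and their sums were 30.5 to 64.4 and 45.4 to 87.4 FPKM. Cd68, which encodes a lysosomal protein of macrophages, had 76.6, 35.6 and 36.8 FPKM in ACT + IL-2 and 159, 229 and 153 FPKM in ACT + NKTR-214. The ratio of Fabp4 to Cd68 was 0.777, 0.820 and 0.554 in ACT + IL-2 and 0.651, 0.433 and 0.217 in ACT + NKTR-214, with overlap between the groups. The ratio of Fabp4 to Adipoq ran from 9.54 to 65.6 and was highest in ACT + IL-2 replicate 3, the tumor with the least Adipoq. The part of these cells in the level of Fabp4 was not tested.

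Ratios within the adipose set differed in how far they varied. Cfd over Adipoq lay between 7.92 and 14.0 in the 6 tumors, while Adipoq itself ranged from 0.311 to 10.8 FPKM. Plin1 over Adipoq lay between 0.380 and 0.733 in 5 tumors and was 1.44 in ACT + IL-2 replicate 3. Adipoq there rested on 8 reads, with an exact 95% Poisson interval of 3.45 to 15.8 reads. Lep over Adipoq ran from 0.0112 to 0.142, a 12.7-fold range and wider than the 6.87-fold range of Fabp4 over Adipoq, with 1 to 57 reads behind the Lep values. Cfd thus kept the closest proportion to Adipoq, within a 1.77-fold range.

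The muscle genes had another order of tumors. Acta1 (chromosome 8, 123891769 to 123894751, minus strand) encodes skeletal muscle alpha-actin, the thin filament protein. It had 19.6, 11.0 and 28.5 FPKM in replicates 1, 2 and 3 of ACT + IL-2 and, in the same order, 9.34, 13.7 and 8.64 FPKM in ACT + NKTR-214. ACT + IL-2 replicate 3, the tumor with the least adipose RNA of its group, was the highest of all, and ACT + IL-2 replicate 2 lay within the range of ACT + NKTR-214. The means were 19.7 ± 8.75 and 10.6 ± 2.73 FPKM (SD, n = 3 each), with a log2 fold change of -0.77 (SE 0.25, limma adjusted p = 0.0319). Of the 50-base windows of its transcripts, 2.02% also occur in other genes, among them the cytoplasmic actin genes Actb and Actg1.

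Ckm (chromosome 7, 19404776 to 19422841) encodes the muscle form of creatine kinase, which regenerates ATP for contraction. Its values were 16.1, 8.10 and 21.9 FPKM in ACT + IL-2 and 7.40, 9.54 and 7.21 FPKM in ACT + NKTR-214. The log2 fold change was -0.76 (SE 0.25, limma adjusted p = 0.0306). The gene overlaps A930016O22Rik over 15.5% of its exon bases, and reads in that stretch cannot be assigned to either gene without strand.

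Myh4, Mylpf and Tnnt3 encode parts of the fast fiber contractile apparatus. Myh4 (chromosome 11, 67238029 to 67260446) encodes the type IIb myosin heavy chain of the fastest mouse fibers and had 9.07, 4.33 and 12.2 FPKM in ACT + IL-2 and 3.27, 4.79 and 3.35 FPKM in ACT + NKTR-214. It had the largest fall of the 10 genes, with a log2 fold change of -0.91 (SE 0.25, limma adjusted p = 0.0136). Of its 50-base windows, 18.9% also occur in the neighboring myosin genes Myh1, Myh2, Myh8 and Myh13, so part of its reads is uncertain. Tnnt3 (chromosome 7, 142498836 to 142516009) encodes fast troponin T, which ties the calcium switch to tropomyosin, and had 13.9, 7.76 and 19.0 FPKM in ACT + IL-2 and 5.77, 9.06 and 5.71 FPKM in ACT + NKTR-214. It fell by 0.84 on the log2 scale (SE 0.25, limma adjusted p = 0.0171), with ACT + IL-2 replicate 2 inside the range of the other group as for Myh4. Mylpf (chromosome 7, 127208890 to 127214298) encodes the fast regulatory light chain of myosin and had 8.91, 5.15 and 11.3 FPKM in ACT + IL-2 and 4.93, 5.50 and 5.49 FPKM in ACT + NKTR-214. Its log2 fold change of -0.53 (SE 0.21, limma adjusted p = 0.0686) did not pass the threshold.

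The muscle calls rested on ACT + IL-2 replicate 3. Without that tumor 0 of the 5 muscle genes passed in limma, with adjusted p-values of 0.150 for Acta1, 0.145 for Ckm, 0.0521 for Myh4 and 0.0749 for Tnnt3, and log2 fold changes of -0.47, -0.47, -0.62 and -0.57. Acta1, Ckm, Myh4 and Tnnt3 passed in each of the other 5 fits that left out 1 tumor, but in 3 of these limma gave each gene's own spread no weight. With a prior variance that allows for genes of unusual spread (limma's robust option), the adjusted p-values were 0.236, 0.223, 0.165 and 0.170, and 0 of the 10 genes passed.

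Ratios to Acta1 within the muscle set varied 1.15-fold to 1.59-fold over the 6 tumors, and those to Adipoq within the adipose set varied 1.77-fold to 12.7-fold. Ckm over Acta1 lay between 0.697 and 0.835 in the 6 tumors, a 1.20-fold range, and Tnnt3 over Acta1 between 0.618 and 0.710. Myh4 over Acta1 ran from 0.350 to 0.462, a 1.32-fold range, and Mylpf over Acta1 from 0.399 to 0.635, a 1.59-fold range. By contrast, Adipoq over Acta1 spanned 0.0109 to 1.16, a 106-fold range. The myosin heavy chains differed somewhat in their shares. Among the FPKM of the adult skeletal myosin heavy chains Myh4, Myh1, Myh2 and Myh7, which mark IIb, IIx, IIa and slow fibers, Myh4 took 78.5 to 88.7%, Myh1 5.63 to 14.5%, Myh2 3.42 to 4.78% and Myh7 1.62 to 2.64%. The IIb chain was thus the major one in every tumor. Myh1 took 5.63, 11.7 and 9.64% in ACT + IL-2 and 14.5, 13.4 and 12.95% in ACT + NKTR-214, and Myh4 took 88.7, 81.7 and 84.4% against 78.5, 81.4 and 79.8%. The groups did not overlap in either share, and 42.4% of all genes tested had no overlap in FPKM. Both shares are parts of 1 sum, so they do not count as separate results, and the nearest Myh4 shares were 81.7 and 81.4%. In FPKM the groups overlapped for both Myh4 and Myh1. The shares also carry the uncertainty of the windows that Myh4 has in common with Myh1. The difference was not tested.

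To place the muscle genes beside their regulatory sequence, the 250 bases before the RefSeq start were read for the 8 of 10 genes that the table of promoters held, which left out Fabp4 and Tnnt3. The 4 muscle promoters are shown because their genes moved together over the tumors. They lie on GRCm38.p6 at chr8:123894776-123895025 (minus strand), chr7:19410844-19411093 (plus strand), chr7:127211358-127211607 (plus strand) and chr11:67237562-67237811 (plus strand), and those of Ckm and Mylpf fall inside the longer span that GENCODE vM21 gives these genes. Each is written 5′ to 3′ and ends at the base before the start, and capitals mark the letters CAGCTG, an E box of the kind that the MyoD family of muscle transcription factors can bind.
Acta1 promoter: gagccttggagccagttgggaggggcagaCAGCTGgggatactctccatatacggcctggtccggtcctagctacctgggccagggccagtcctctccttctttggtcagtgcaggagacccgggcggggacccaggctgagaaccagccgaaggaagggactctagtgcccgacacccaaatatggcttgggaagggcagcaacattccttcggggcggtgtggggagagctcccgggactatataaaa
Ckm promoter: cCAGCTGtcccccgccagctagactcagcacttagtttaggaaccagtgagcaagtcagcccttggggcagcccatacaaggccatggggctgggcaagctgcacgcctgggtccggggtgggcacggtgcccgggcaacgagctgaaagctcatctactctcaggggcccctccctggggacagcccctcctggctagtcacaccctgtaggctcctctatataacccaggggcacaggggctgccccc
Mylpf promoter: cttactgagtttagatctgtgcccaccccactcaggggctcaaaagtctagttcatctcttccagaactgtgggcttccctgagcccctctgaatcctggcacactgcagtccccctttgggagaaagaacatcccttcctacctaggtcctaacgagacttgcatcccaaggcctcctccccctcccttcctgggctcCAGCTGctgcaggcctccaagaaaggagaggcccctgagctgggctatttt
Myh4 promoter: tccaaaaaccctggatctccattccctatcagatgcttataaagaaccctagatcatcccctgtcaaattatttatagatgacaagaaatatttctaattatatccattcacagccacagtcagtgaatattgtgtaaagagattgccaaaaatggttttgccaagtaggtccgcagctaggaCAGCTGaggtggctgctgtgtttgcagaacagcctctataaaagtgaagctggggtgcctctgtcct
CAGCTG, which reads the same on both strands, was present in 4 of the 4 muscle promoters and in 1 of the 4 adipose promoters (Adipoq), against 13% of 32851 RefSeq promoters of the same length. Its first base lay 221 bases before the start in Acta1, 249 in Ckm, 51 in Mylpf and 67 in Myh4. RefSeq and GENCODE starts differ for all 4 genes, and those of Acta1 and Myh4 lie further upstream in RefSeq. The distances thus depend on the annotation. The wider E box pattern CANNTG, which includes CAGCTG, was in 8 of the 8 promoters and in 66.2% of all promoters. On either strand, TATAAA was in 2 of the 4 muscle promoters, 0 of the 4 adipose promoters and 12.4% of all promoters, and the CArG box, the pattern of serum response factor, was in 2 of the 4 muscle promoters, 0 of the 4 adipose promoters and 1.47% of all promoters. A match describes letters and not binding.

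The spread between tumors of the same group was wide for the adipose genes in both groups and for the muscle genes in ACT + IL-2. In ACT + IL-2 the highest tumor exceeded the lowest 16.4-fold for Adipoq, 9.31-fold for Cfd, 4.48-fold for Plin1 and 2.92-fold for Fabp4, against a median of 1.35-fold over all genes tested. In ACT + NKTR-214 the same ratios were 9.31, 9.39, 9.26 and 3.11, against a median of 1.25. From its reads, the ratio of Adipoq had an exact 95% interval of 8.13 to 38.8 in ACT + IL-2 and of 6.53 to 13.7 in ACT + NKTR-214. Lep, from its reads, had ratios of 7.60 (exact 95% interval 2.33 to 39.2) in ACT + IL-2 and 54.8 (exact 95% interval 9.45 to 2203) in ACT + NKTR-214. For the muscle genes the ratios lay between 2.20 (Mylpf) and 2.81 (Myh4) in ACT + IL-2 and between 1.12 (Mylpf) and 1.59 (Tnnt3) in ACT + NKTR-214. Adipose genes thus varied in both groups, and muscle genes varied more in ACT + IL-2, a difference in spread that was not tested.

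**Figure D2:**
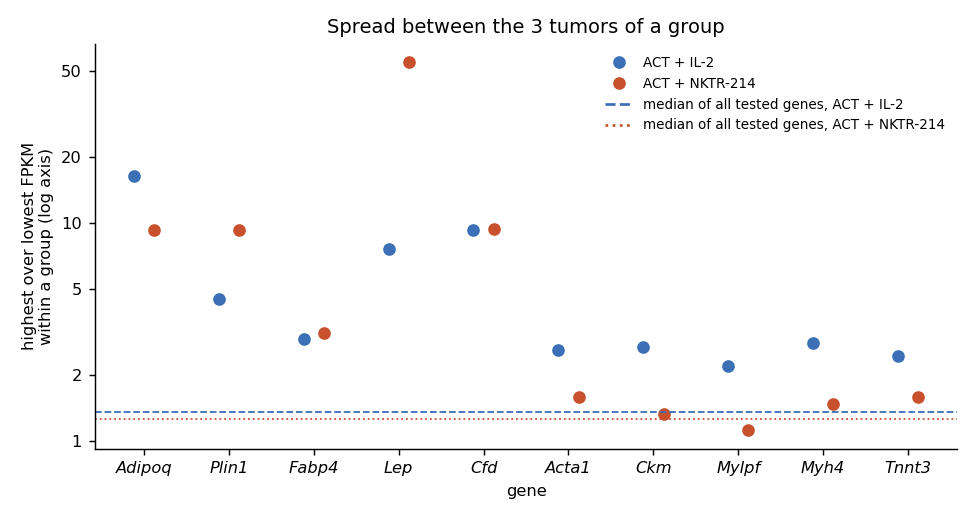
Ratio of the highest to the lowest tumor of a group for each gene, on a log axis, with blue points for ACT + IL-2, red points for ACT + NKTR-214 and horizontal lines at the median of all tested genes in each group. The adipose genes lie from 2.92 to 54.6, the last of them for Lep where the lowest tumor had 1 read, and the muscle genes from 1.12 (Mylpf in ACT + NKTR-214) to 2.81 (Myh4 in ACT + IL-2).

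On the scale of log2(FPKM + 1), the range of Adipoq, Fabp4, Cfd and Plin1 within ACT + IL-2 was wider than that of 97.6 to 99.99% of the genes tested, and the range of the muscle genes was wider than that of 97.1 to 99.0% of them. Lep, whose low values the offset of 1 compresses, exceeded 54.7% of genes in ACT + IL-2 and 95.8% in ACT + NKTR-214. In ACT + NKTR-214 the other 4 adipose genes exceeded 99.8 to 99.99% of genes, while the muscle genes exceeded 19.5% (Mylpf) to 91.7% (Acta1). The FPKM sum of all entries was lowest in ACT + IL-2 replicate 2, the tumor with the least muscle RNA of its group. With the libraries scaled to a common 75th percentile, the median range of the muscle genes in ACT + IL-2 was 1.02, against 1.30 as deposited.

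Both sets were then set side by side in each tumor. All 5 adipose genes were highest in replicate 1 and lowest in replicate 3 in each group, and all 5 muscle genes were highest in replicate 3 and lowest in replicate 2 of ACT + IL-2. In ACT + NKTR-214 all 5 muscle genes were highest in replicate 2. The adipose genes summed to 107, 64.3 and 25.5 FPKM in ACT + IL-2 and to 216, 154 and 45.2 FPKM in ACT + NKTR-214. The muscle genes summed to 67.6, 36.3 and 92.9 FPKM and to 30.7, 42.6 and 30.4 FPKM. ACT + IL-2 replicate 3 had the least adipose and the most muscle RNA of the 6 tumors, and ACT + NKTR-214 replicate 1 had the most adipose RNA beside nearly the least muscle RNA. Replicate numbers name different mice, and whether a number also marks a shared batch or day is not given in the sources used here.

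**Figure D3:**
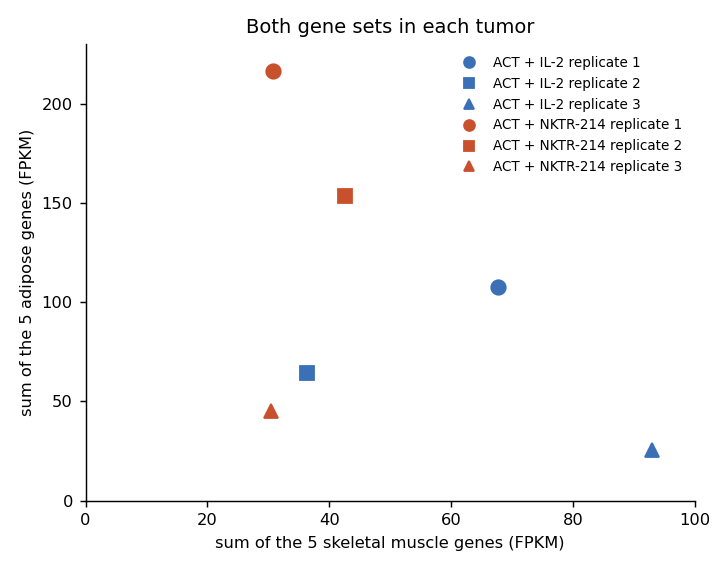
Sum of the 5 adipose genes against the sum of the 5 skeletal muscle genes, both in FPKM, with 1 symbol per tumor (blue for ACT + IL-2, red for ACT + NKTR-214). ACT + IL-2 replicate 3 lies at the lower right (92.9 muscle, 25.5 adipose) and ACT + NKTR-214 replicate 1 at the upper left (30.7 muscle, 216 adipose).

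Other genes of the adipocyte were read from a list of 16, of which 15 were tested. In ACT + NKTR-214, 9 were higher (Adrb3, Cd36, Cebpa, Cidec, Dgat2, Lipe, Lpl, Pnpla2 and Retn), 1 was lower (Slc2a4) and 5 did not pass, with a median log2 fold change of 0.55. Of all genes tested 20.7% were higher, and with quantile normalization 4 genes of the list were higher against 18.8% of all genes. In 7 of the 15 genes no tumor of a group lay within the range of the other, a share near the 42.4% of all genes. Cidec, a lipid droplet protein of white fat, had 2.75, 1.65 and 0.222 FPKM in ACT + IL-2 and 9.63, 5.20 and 1.37 FPKM in ACT + NKTR-214, the same order of tumors as Adipoq, and a log2 fold change of 1.23 (SE 0.43, limma adjusted p = 0.0411). Retn, which encodes the mouse adipocyte hormone resistin, rose by 0.83 on the log2 scale (SE 0.24, limma adjusted p = 0.0146). Plin4, another droplet coat protein, was at 2.38, 2.12 and 0.533 FPKM and at 4.80, 2.18 and 0.681 FPKM, close to the values of Plin1, and did not pass (limma adjusted p = 0.544). Pck1, an enzyme of glycerol synthesis in fat, likewise did not pass (log2 fold change 0.48, limma adjusted p = 0.436).

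The largest differences of that list were in genes that macrophages also express. Cd36, a fatty acid transporter and scavenger receptor, rose by 1.93 on the log2 scale (SE 0.26, limma adjusted p = 4.63e-05), Cebpa, a transcription factor of adipocytes and myeloid cells, by 1.60 (SE 0.27, limma adjusted p = 0.000309) and Lpl, lipoprotein lipase, by 1.48 (SE 0.29, limma adjusted p = 0.000952). In these 3 genes the groups did not overlap, nor did they in Adrb3, Dgat2, Pnpla2 and Slc2a4 of the same list. Cd36 had 19.0, 8.03 and 7.17 FPKM in ACT + IL-2 and 44.8, 51.4 and 33.2 FPKM in ACT + NKTR-214. The macrophage sums given above were also higher in ACT + NKTR-214, with 2296, 3188 and 1780 FPKM in its replicates 1, 2 and 3. Cd36 and Cebpa (17.3, 26.5 and 16.5 FPKM) had that order of tumors there. Lpl (45.6, 42.0 and 21.1 FPKM) had the order of the adipose genes. In ACT + IL-2 the sums and all 3 genes were highest in replicate 1. The part of macrophages was not tested. Slc2a4, the insulin-sensitive glucose transporter of fat and muscle, fell by 0.59 on the log2 scale (SE 0.15, limma adjusted p = 0.00864), from 2.11, 1.36 and 2.29 FPKM to 1.26, 0.886 and 0.656 FPKM, with the order of the muscle genes in ACT + IL-2 and that of the adipose genes in ACT + NKTR-214. The count of higher genes was 2 without ACT + IL-2 replicate 2 and 6 when either ACT + IL-2 replicate 3 or ACT + NKTR-214 replicate 1 was left out.

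**Figure D4:**
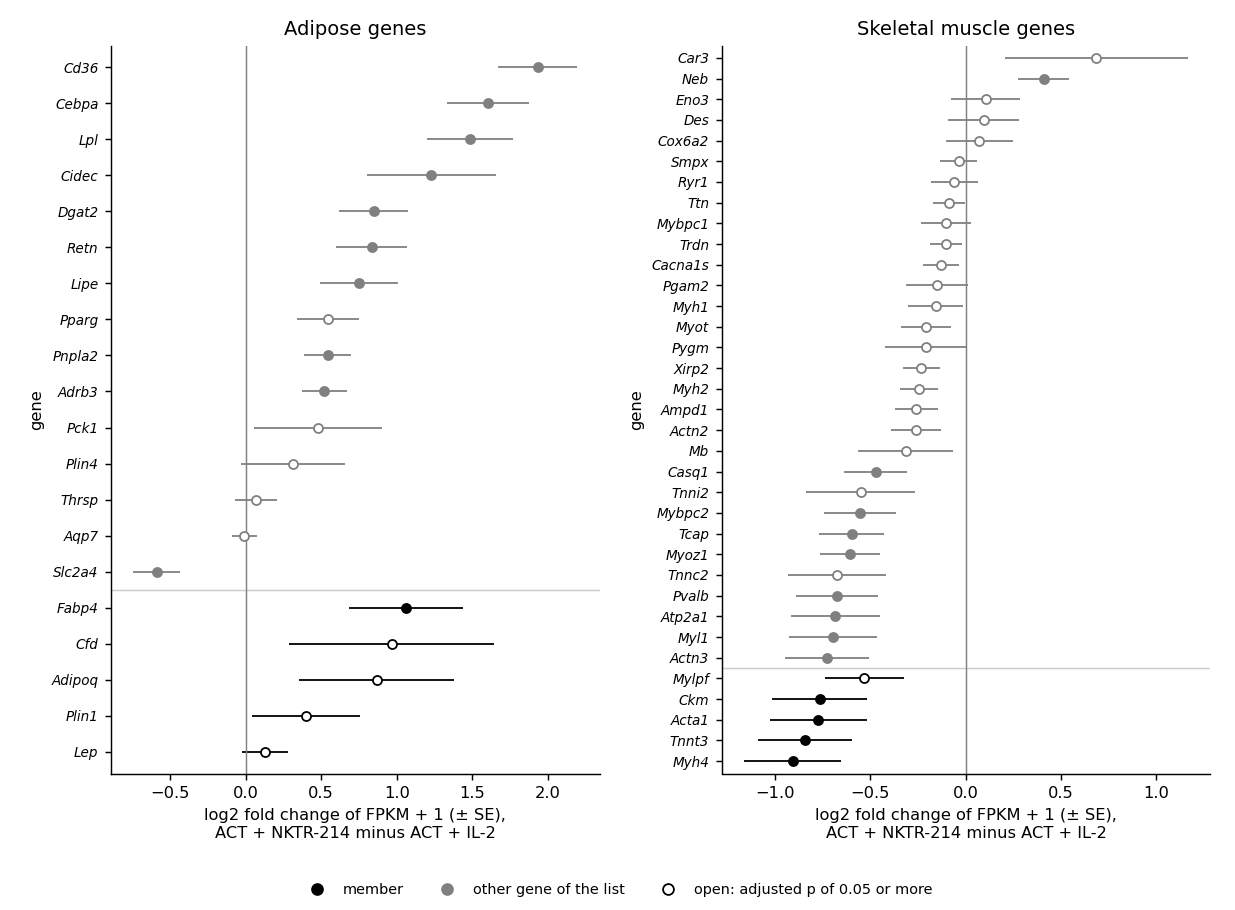
Log2 fold change of FPKM + 1 (ACT + NKTR-214 minus ACT + IL-2) with its standard error, for the adipose genes on the left and the skeletal muscle genes on the right, where the 10 tissue genes are black, other genes of the lists grey, and open symbols have an adjusted p of 0.05 or more. The black adipose points run from 0.13 (Lep) to 1.06 (Fabp4) and the black muscle points from -0.91 (Myh4) to -0.53 (Mylpf), with Cd36 (1.93) and Slc2a4 (-0.59) at the ends of the adipose list.

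Of 30 other genes of fast or shared skeletal muscle function, all tested, 8 were lower (Actn3, Atp2a1, Casq1, Mybpc2, Myl1, Myoz1, Pvalb and Tcap), 1 was higher (Neb) and 21 did not pass, with a median log2 fold change of -0.22. Of all genes tested 8.28% were lower, whereas with a common 75th percentile the list had 10 lower genes against 26.2% of all genes, with a common FPKM sum 12 against 31.3%, and with quantile normalization 17 against 32.1%. In 7 of them no tumor of a group lay within the range of the other, against 42.4% of all genes. Genes of the same functions, among them the fast troponin genes Tnni2 and Tnnc2, were among those that did not pass. Actn3, the alpha-actinin of fast Z-lines, fell by 0.73 on the log2 scale (SE 0.22, limma adjusted p = 0.0202), and Myl1, a fast myosin light chain, fell by 0.69 (SE 0.23, limma adjusted p = 0.0335). Atp2a1, the calcium pump of the fast sarcoplasmic reticulum, had 11.9, 7.20 and 17.1 FPKM in ACT + IL-2 and 6.14, 8.50 and 5.83 FPKM in ACT + NKTR-214, with a log2 fold change of -0.68 (SE 0.23, limma adjusted p = 0.0369). Pvalb, the calcium buffer parvalbumin, had 7.26, 4.31 and 9.98 FPKM against 3.68, 4.28 and 3.79 FPKM, and its groups did not overlap (log2 fold change -0.67, SE 0.21, limma adjusted p = 0.0261). The list's count of lower genes was 1 in the fit lacking ACT + IL-2 replicate 3 and 5 in the fit lacking ACT + NKTR-214 replicate 1.

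Some genes of that list did not move with the rest. Neb, the giant thin filament protein nebulin, rose from 0.702, 0.505 and 1.00 FPKM to 1.00, 1.40 and 1.49 FPKM (log2 fold change 0.41, SE 0.13, limma adjusted p = 0.0299), a call that was lost with the libraries scaled to a common 75th percentile. Des, the intermediate filament protein desmin, had a log2 fold change of 0.09 (limma adjusted p = 0.745) and Eno3, the muscle enolase, of 0.11 (limma adjusted p = 0.708). Car3, carbonic anhydrase 3, is abundant in both slow muscle and white fat, and its 14.1, 8.01 and 2.75 FPKM in ACT + IL-2 and 27.2, 12.8 and 4.45 FPKM in ACT + NKTR-214 followed the order of the adipose genes. Of 7 slow muscle genes, 1 was lower (Myl3, log2 fold change -0.44, limma adjusted p = 0.0150) and 1 was higher (Tnni1, log2 fold change 0.55, limma adjusted p = 0.000747).

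Markers of related cell types ranged from 0 to several FPKM. Ucp1 and Cidea, which mark brown fat, were at most 0.0492 FPKM, and both were listed at 0 in the 3 ACT + IL-2 tumors, while Cpt1b, which encodes the carnitine palmitoyltransferase of the outer mitochondrial membrane in brown fat and muscle, had 1.32 to 2.29 FPKM. Pax7 and Myf5, which mark muscle stem cells and myoblasts, were listed at 0 in all 6 tumors, as were Chrng and Chrnd, subunits of the muscle acetylcholine receptor. Of 11 myogenic regulators and embryonic muscle genes, 2 reached the minimum for the test and 0 passed it, 0 of them at an unadjusted p under 0.05 as well. Of 5 cardiac genes, 4 were tested, and the troponin genes Tnnt2 and Tnni3 were higher, with log2 fold changes of 1.20 (limma adjusted p = 0.000401) and 0.71 (limma adjusted p = 0.00256). Tnnt2 had 2.62, 1.35 and 2.80 FPKM in ACT + IL-2 and 4.55, 7.27 and 7.56 FPKM in ACT + NKTR-214, levels there close to or above those of Myh4. Tnni3 reached 1.29 to 1.56 and 2.43 to 3.94 FPKM, and Nppa, the atrial natriuretic peptide gene, 0.761 to 1.89 FPKM over the 6 tumors. The other 2 tested cardiac genes went the other way and did not pass. Nppa had a log2 fold change of -0.17 (limma adjusted p = 0.468). Myh6, a cardiac myosin heavy chain, had -0.24 (limma adjusted p = 0.155), with 0.723 to 1.24 FPKM in ACT + IL-2 and 0.518 to 0.677 FPKM in ACT + NKTR-214. The atrial light chain gene Myl7 was listed at 0 in 5 of the 6 tumors. Krt1 and Krt25, of the differentiated epidermis and the hair follicle sheath, were listed at 0 in all 6 tumors, and 3 of the 10 keratinocyte and hair follicle genes were tested, of which 0 passed, also at an unadjusted p under 0.05. The 10 genes summed to 0.866, 0.641 and 0.183 FPKM in ACT + IL-2 and 1.79, 1.59 and 0.255 FPKM in ACT + NKTR-214, the order of tumors that the adipose genes had in both groups. Of the 3 tested genes, Krt14 and Krt17 had that order in both groups. Krt5 had it in ACT + IL-2 only, with 0.665, 0.674 and 0.0384 FPKM in ACT + NKTR-214. The part of skin in the adipose values was not tested.

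Fibroblast genes, which mark the connective tissue of the tumor and of its surroundings, summed to 218 to 658 FPKM in ACT + IL-2 and 596 to 1189 FPKM in ACT + NKTR-214, and 6 of 8 were higher. Of 7 smooth muscle genes, 6 were tested and 1 (Myh11) was higher. All 7 together summed to 10.8 to 36.1 FPKM in ACT + IL-2 and 20.3 to 28.4 FPKM in ACT + NKTR-214. All 8 melanocyte genes had lower values in each ACT + NKTR-214 tumor than in any ACT + IL-2 tumor, and 6 passed the test, with a median log2 fold change of -0.86. The highest fibroblast, macrophage and endothelial sums of ACT + NKTR-214 were in replicate 2, not in replicate 1 where the adipose genes were highest, and those of ACT + IL-2 were in replicate 1. The part of these tissues and of tumor cells in the adipose and muscle values was not tested.

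The genes most like each set were ranked by Pearson's r between log2(FPKM + 1) and the mean z-score of the 5 genes over the 6 tumors, among the 11549 genes whose mean reached 1 FPKM. With 6 points and so many genes, high values of r are common, and the tumors share their scaling, so r is a description. For the adipose genes the first 8 were Car3 (0.996), Tmem86b (0.995), Krt18 (0.978), Plin4 (0.970), Cidec (0.968), Fbxo36 (0.967), Pck1 (0.957) and Galnt12 (0.954). Krt18, a keratin of simple epithelia, had 2.12, 1.53 and 0.102 FPKM in ACT + IL-2 and 4.88, 2.95 and 0.180 FPKM in ACT + NKTR-214, a 47.7-fold range, whereas Tmem86b and Galnt12 varied 1.31-fold and 1.32-fold over the 6 tumors. For the muscle genes the first 8 were Zfp866 (0.997), Wdr4 (0.996), Atp2a1 (0.994), Pvalb (0.992), Tnnc2 (0.991), Homer3 (0.990), Pemt (0.990) and Dact3 (0.988). Of these, the muscle list holds Atp2a1, Pvalb and Tnnc2, which varied 2.94-fold, 2.71-fold and 3.34-fold, while the other 5 varied 1.35-fold to 1.95-fold.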

How the data were processed

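RNA of 6 whole B16-F10 tumors was extracted with the RNeasy Mini Kit and sequenced by the authors as single-end reads. They mapped the reads to GRCm38 with HISAT2 version 2.0.4, counted them per gene with HTSeq (gene annotation not given in the sources used here) and deposited FPKM values, 1 column per tumor, all of which were used. Here, log2(FPKM + 1) was compared between the groups with limma 3.58.1 in R 4.3.3 (lmFit, eBayes with trend) for the 14172 genes whose mean reached 0.1 FPKM, and p-values were adjusted over all of them (Benjamini-Hochberg, threshold 0.05). The offset of 1 compresses fold changes of low genes. Signs are ACT + NKTR-214 minus ACT + IL-2. An exact permutation test of 3 against 3 tumors cannot go below 0.1, so adjusted p-values rest on the variance shared across genes. In a test on simulated data the fit called 182 of 200 changed genes and 11 unchanged genes among 14172. The planted changes were 1 or more on the log2 scale, in genes with a mean log2(FPKM + 1) above 1. Noise was independent between genes and no library was shifted. The test therefore cannot show how the fit behaves for smaller changes, lower genes or differences in scaling. Whole reads were recovered for 9 of the 10 genes, not for Myh4, from the smallest step between tumors within 0.03 reads, and those of Plin1 and Ckm could be a fraction of the true reads, since 1 read implied 1931 and 1427 exon bases against 3873 and 2742 annotated. Positions are from GENCODE vM21 and promoters from RefSeq (GRCm38.p6). The genes, lists and tests were chosen with earlier results of these data known. The 10 genes and the 8 genes most like each set were named. List genes that passed the test or averaged 1 FPKM or more were eligible, and not all of them were named. Outside that rule, with their values known, the other adult myosin heavy chains, the cardiac gene Myh6, the tested keratin genes and markers at or near 0 were named. Python 3.11.15, pandas 2.3.3, scipy 1.17.1 and matplotlib 3.10.9 were used for tables and figures. Alternatives tried were an offset of 0.1, a filter at 1 FPKM or none, 75th percentile scaling, quantile normalization, no trend in eBayes, unmoderated variances, the replicate block and each tumor left out. Scaling to a common sum, robust eBayes and the counts of the wider lists under each setting were added after seeing the data.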

Additional observations from a re-analysis of the deposited data

How the results depend on the processing

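Of the 10 genes, 1 was higher and 4 were lower as reported. The higher count was 0 with no minimum FPKM, 75th percentile scaling, quantile normalization, a common FPKM sum, eBayes without the trend, robust eBayes and no moderation. The lower count was 0 with no minimum FPKM, robust eBayes and no moderation, and 2 without the trend. With 1 tumor left out, the higher count ran from 0 to 5 and the lower count from 0 to 5, and the log2 fold changes ran from -0.077 to 0.90 for Plin1 and from -0.092 to 0.29 for Lep, both negative only without ACT + NKTR-214 replicate 1. Without ACT + IL-2 replicate 1, ACT + NKTR-214 replicate 2 or ACT + NKTR-214 replicate 3, limma's prior took all the weight from each gene's own spread, and the calls there, of adipose genes (4, 3 and 5) and of muscle genes alike, rest on that. The mean log2 fold change stayed between 0.23 and 1.23 for the adipose genes and between -1.10 and -0.49 for the muscle genes with 1 tumor left out. Of the other adipocyte genes, 9 were higher as reported, 4 with no minimum, with quantile normalization and with a common sum, 5 with 75th percentile scaling, 2 with robust eBayes and 0 without moderation (2 to 12 with 1 tumor left out). The 1 lower gene was 0 without moderation and 1 with each tumor left out. Of the other muscle genes, 8 were lower as reported, 1 with no minimum, 17 with quantile normalization, 4 without the trend, 3 with robust eBayes and 0 without moderation (1 to 12 with 1 tumor left out). The 1 higher gene was 0 with a minimum of 1, no minimum, the 3 other scalings, no trend and no moderation (0 to 2 with 1 tumor left out). Over all genes, 71.5% of calls were higher, against 46.8% with 75th percentile scaling, 37.0% with quantile normalization and 39.7% with a common sum. Quantile normalization and a common sum moved the median log2 fold change by -0.145 and -0.126. Without moderation 101 genes were higher and 27 lower.

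The replicate numbers stand for different mice and were not taken as pairs. Same-numbered tumors correlated at -0.21, -0.07 and 0.40 in their deviations from the group means. Such correlations over all genes cannot tell whether a number marks a shared batch or day that acts on the adipose genes. With the replicate block, 3 of the 10 genes were higher and 5 lower, with adjusted p = 8.89e-05 for Adipoq, 1.70e-05 for Cfd and 0.0272 for Mylpf in limma, and 2 other muscle genes were higher. That fit had 2 residual degrees of freedom against 29.1 for limma's prior. Each gene's own spread thus had little weight in these p-values, which rest mostly on the variance shared across genes. Depth limits Lep, with 1 to 57 reads per tumor, and Adipoq in ACT + IL-2 replicate 3, with 8 reads.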
